A study of Drosophila melanogaster with 20 samples.

Results

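Head RNA of a pair of control lines of Drosophila melanogaster was compared, ElavC155-GAL4 and Elav-GAL4, which carry a neuronal driver and no RNA interference transgene. The arrays were taken by genotype: 2 of ElavC155-GAL4 and 4 of Elav-GAL4, that is 6 of the 20 arrays of the study, with a value for each of 15473 transcripts. The study as a whole addresses ATM, a kinase activated by DNA double-strand breaks, and each of these lines served as the control for an ATM knockdown with its own driver. Comparing the controls with each other shows how far the lines differ when no knockdown is present.

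GAL4 is a yeast transcription factor that switches on any fly transgene placed behind its binding sites, and a driver is a fly line that makes GAL4 in chosen cells. elav is a gene for an RNA-binding protein of neurons, and both drivers take their neuronal expression from it. The C155 insertion lies in the elav locus itself and traps its enhancers. Lines kept apart also collect different variants and insertions along their chromosomes, so a control line is a control for the flies it shares that background with.

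ElavC155-GAL4 flies carried the driver on the X chromosome, written in the labels as ElavC155-GAL4/+; +/+; +/+. Elav-GAL4 flies carried it on chromosome 2, written as +/+; Elav-GAL4/+; +/+. The labels give w1118 as the genetic background of both, head as the tissue and 4 to 6 days as the age. Flies of both lines were kept at 25°C throughout, gathered within 3 days of eclosion and held for 3 more days. An X-linked insertion over a wild-type chromosome is found in females, and the Elav-GAL4 label is also written with 2 X chromosomes. The labels give no sex for either line. Driver, insertion site, remaining background and any difference in sex therefore cannot be told apart in this comparison. The same holds for any difference between the lines in how flies or arrays were handled. A second pair of genotypes, ElavC155-ATMi (2 arrays) and Elav-ATMi (4 arrays), carried the same drivers together with a UAS-RNAiATM transgene on chromosome 3, under the same background, age and temperature. These 6 arrays have no array in common with the driver controls. The remaining 8 arrays, named only where their levels help to place a transcript, are 2 each of Repo-GAL4 (a glial driver control, also w1118 at 25°C), Repo-ATMi (its knockdown) and flies with 1 or 2 copies of the ATM mutant allele ATM8, which have the pp e1 background and were reared at 18°C. In bulk head RNA, fewer cells of a type and less RNA per cell cannot be told apart.

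Values are RMA levels on a log2 scale, so a difference of 1 is a 2-fold difference. The 12 arrays of the neuronal drivers had medians between 10.84 and 10.93, and all 15473 values were present on each. Rows carry FlyBase transcript identifiers, and 17 rows could be tied to exactly 1 gene. Of the 174 entries in the gene lists for cell types, sex-biased genes, stress and immunity, 0 had a row that could be tied. The neuronal origin of the signal and the sex of the flies were therefore not checked against marker genes. A transcript is called changed, higher or lower at a limma adjusted p under 0.05 over all rows. The labels name the replicates biological without saying how they were raised, so a p-value here reflects how these samples vary, which may be technical.

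The arrays of the 2 driver controls stood apart from each other. Across transcripts, Elav-GAL4 arrays correlated with each other at r = 0.989 to 0.995 and the ElavC155-GAL4 arrays at 0.993, while pairs made of 1 array of each line gave 0.971 to 0.986. Within the ElavC155 line, ElavC155-GAL4 arrays correlated with ElavC155-ATMi arrays at 0.990 to 0.994. Within the Elav line, Elav-GAL4 arrays correlated with Elav-ATMi arrays at 0.976 to 0.993, a range that overlaps the one between the lines and that narrowed to 0.984 to 0.993 without Elav-ATMi replicate 1. On the first principal component of the 12 arrays, which held 40.7% of the variance, the 8 arrays with the Elav driver lay between -29.0 and -11.0 and the 4 arrays with the ElavC155 driver between 36.0 and 47.1. Elav-ATMi replicate 1 stood apart on the second component, at -56.9, where the other 11 arrays lay between -8.7 and 21.4. It also correlated less well with the other Elav-ATMi arrays (0.976 to 0.985) than these did among themselves (0.989 to 0.992). It is no member of the driver control pair. Without it the first component held 47.3% of the variance, with Elav arrays between -32.0 and -13.5 and ElavC155 arrays between 33.9 and 44.3.

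**Figure D1:**
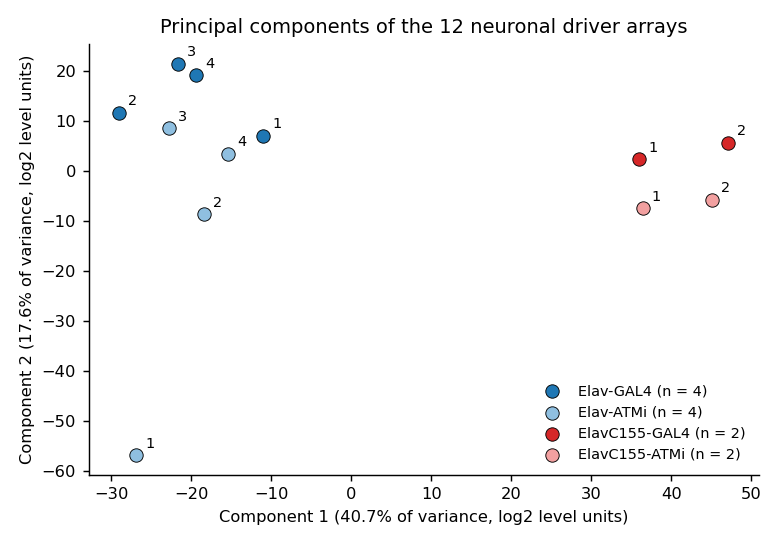
Position of the 12 neuronal driver arrays on the first and second principal components of the log2 levels, with the replicate number beside each point. Arrays with the ElavC155 driver lie to the right (36.0 to 47.1) and arrays with the Elav driver to the left (-29.0 to -11.0), whether or not they carry the RNA interference transgene, and Elav-ATMi replicate 1 lies alone at -56.9 on the second component.

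Between the driver controls, 3426 transcripts differed, 22.1% of those tested. In ElavC155-GAL4 heads 1567 were higher (10.1%) and 1859 lower (12%). Most of these differences were small: the median size among them was 0.72 on the log2 scale (1.64-fold), against 0.26 over all transcripts. At least a 1.5-fold difference was measured for 1064 higher (6.88%) and 1298 lower transcripts (8.39%), at least 2-fold for 357 (2.31%) and 475 (3.07%), and at least 4-fold for 55 (0.355%) and 33 (0.213%). The levels of 6366 transcripts (41.1%) did not overlap between the lines, and 3346 of the changed transcripts were among them. The same fit gave 250 changed transcripts for knockdown with the Elav driver (1.62%, and 201 transcripts without Elav-ATMi replicate 1) and 78 for knockdown with the ElavC155 driver (0.504%), comparisons that share their control arrays with this one and have 4 against 4 and 2 against 2 arrays.

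The count depended most on the ElavC155-GAL4 arrays, of which there were 2. It was 2245 without ElavC155-GAL4 replicate 1 and 1217 without replicate 2, fits in which the remaining array is assumed to vary like the other genotypes, and 1750 when the 6 arrays were fitted on their own. The excess of lower transcripts turned when each array was centred on its median, with 1881 higher and 1586 lower.

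Direction varied with the level of a transcript. Transcripts were split into quartiles of mean level over the 6 arrays, of which 4 were Elav-GAL4. A transcript high in Elav-GAL4 alone therefore gets a higher mean than one equally high in ElavC155-GAL4 alone. This moves transcripts lower in ElavC155-GAL4 toward the upper quartiles, and its part in the counts below was not tested. The lowest quartile (4.55 to 7.74) was the one with more higher than lower transcripts. In it, 453 were higher and 217 lower in ElavC155-GAL4, so that 67.6% of the changes were upward. In the next quartile (7.74 to 10.89) the share of upward changes was 36.8%, with 410 higher and 704 lower, and this quartile had the most changes, 28.8% of its transcripts. The upper quartiles had 405 higher and 562 lower (10.89 to 12.68), and 299 higher and 376 lower (12.68 to 15.96). Differences of at least 4-fold were found for 24 higher and 7 lower transcripts in the lowest quartile. The next had 18 higher and 22 lower, the one above it 9 and 3, and the highest 4 and 1.

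The largest difference was that of FBtr0073511. Its level was 4.88, 5.10, 5.33 and 5.23 on the Elav-GAL4 arrays and 13.30 and 13.21 on the ElavC155-GAL4 arrays. The lines did not overlap, and the difference of 8.12 ± 0.18 (SE, 279-fold, limma adjusted p = 5.7e-14) was far above the spread within either line (SD 0.19, n = 4, and 0.068, n = 2). Its level stayed low in all genotypes without the ElavC155 driver: the means were 5.11 in Elav-ATMi, 5.81 in Repo-GAL4, 5.74 in Repo-ATMi, 5.46 in ATM8 heterozygotes and 5.55 in ATM8 homozygotes. In ElavC155-ATMi heads the level was 13.15 ± 0.047 (SD, n = 2). High levels of this transcript were thus measured on the 4 arrays with the ElavC155 driver and on no other array.

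FBtr0082708 was the second of the higher transcripts, with levels of 5.41, 5.35, 5.08 and 5.32 in Elav-GAL4 and of 9.97 and 10.42 in ElavC155-GAL4. The difference was 4.91 ± 0.20 (30-fold, limma adjusted p = 2.5e-10). Unlike the first, this transcript was also high in flies that carried the RNA interference transgene: its mean was 9.41 in Repo-ATMi against 5.51 in Repo-GAL4, and the 4 Elav-ATMi arrays read 9.14, 8.58, 8.90 and 9.35. The line difference in the presence of the transgene was 2.15 ± 0.20 (adjusted p = 6.4e-06), smaller than in the controls (interaction -2.76 ± 0.29, adjusted p = 0.00043). High levels were thus measured in the transgene flies of all 3 drivers and, without the transgene, in ElavC155-GAL4 alone.

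Among the lower transcripts, FBtr0091661 differed most. Its level was 10.10, 10.10, 10.53 and 10.57 in Elav-GAL4 against 5.03 and 5.06 in ElavC155-GAL4, a difference of -5.28 ± 0.15 (38.9-fold, limma adjusted p = 2.5e-12). FBtr0080253 followed, at 9.80, 9.48, 10.11 and 10.15 against 4.97 and 5.20, a difference of -4.80 ± 0.18 (27.8-fold, adjusted p = 7.8e-11). For both transcripts the lines did not overlap, and both were as high in Elav-ATMi (means 10.31 and 10.07) as in Elav-GAL4 (10.33 and 9.88). Their means in the 4 genotypes with neither neuronal driver were low, from 5.34 to 6.10 for FBtr0091661 and from 5.22 to 5.98 for FBtr0080253, so the Elav line was the one that stood out.

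The 10 largest higher differences ran from 3.47 to 8.12 and the 10 largest lower ones from -5.28 to -2.75. Some identifiers are close in number: FBtr0082707 and FBtr0082708 among the higher, and FBtr0080253 to FBtr0080255, FBtr0080266 and FBtr0080267 among the lower. Whether such transcripts come from separate genes is not known. These 20 transcripts kept their call under every alternative in which they were measured, including fits without either ElavC155-GAL4 array. The table does not say which levels are above background, and the lowest value on these 6 arrays lay between 4.31 and 4.50. The fold of a transcript near that level therefore has no measured floor.

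**Figure D2:**
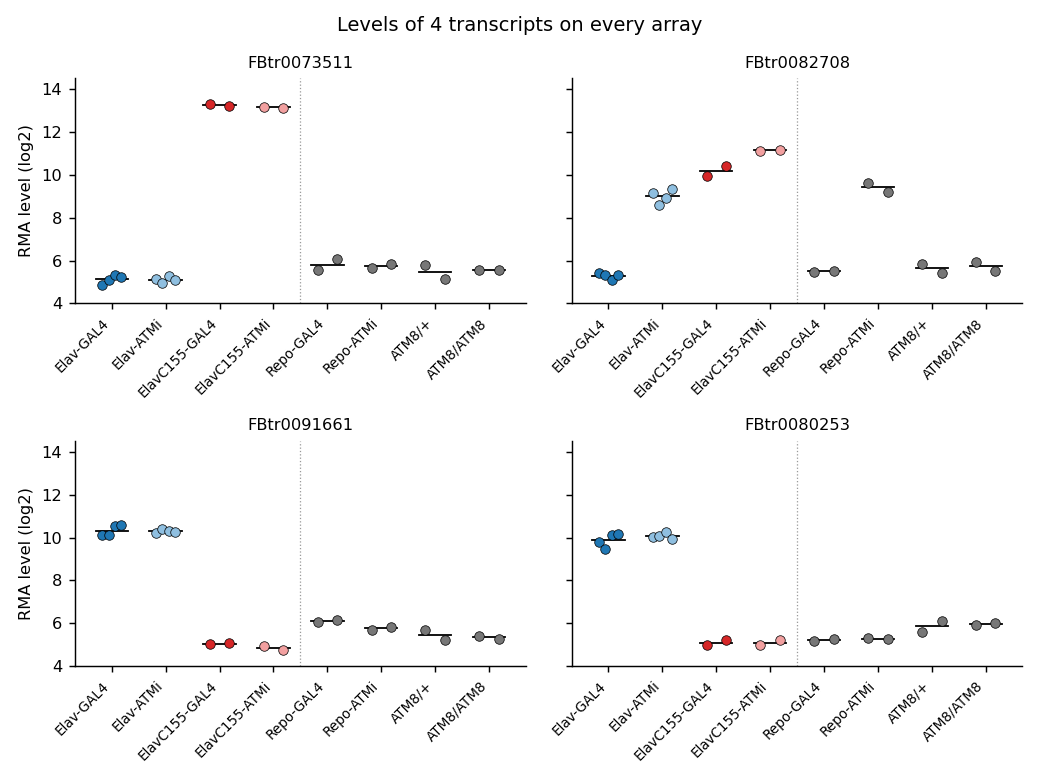
RMA level (log2) of 4 transcripts on all 20 arrays by genotype; points are arrays and bars are means, and the dotted line parts the 12 neuronal driver arrays from the 8 others, whose values have another distribution. FBtr0073511 is high (13.11 to 13.30) on the arrays with the ElavC155 driver alone, FBtr0082708 is low in Elav-GAL4, Repo-GAL4 and the ATM8 genotypes, and FBtr0091661 and FBtr0080253 are high in the Elav genotypes alone.

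Some transcripts were near the bottom of the range in one line and well above it in the other. A mean under 6 in one driver control and of at least 8 in the other, limits chosen after the values were seen, held for 16 transcripts, 9 of them high in ElavC155-GAL4 and 7 high in Elav-GAL4. These limits already require a large difference between the same means, so a call was close to given by the choice. All but 1 of the 16 were called, the exception being among those high in Elav-GAL4. Of these 7, all had a mean of at least 8 in Elav-ATMi too, and 6 had a mean under 6.5 in each of the 6 genotypes without the Elav driver. In this set of 6 the means ran from 8.23 to 10.33 in Elav-GAL4 and from 8.10 to 10.31 in Elav-ATMi, against at most 6.10 in any other genotype. FBtr0080253, FBtr0080255, FBtr0080266 and FBtr0080267 in this set have identifiers close in number. They could not be tied to genes, so whether they come from separate genes is not known and the 6 may not be independent. The ATM8 and Repo arrays have another distribution of values than the neuronal ones, and after quantile normalization of all 20 arrays the set still read at least 7.92 with the Elav driver and at most 6.05 without it.

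The 9 transcripts high in ElavC155-GAL4 were less uniform. Only 2 were under 6.5 in each genotype without the ElavC155 driver, and 6 were under 6.5 in Repo-GAL4, the other w1118 driver control. In Elav-ATMi heads 4 of the 9 reached a mean of 8 and 5 stayed under 6.5. All 9 were called in the same direction in the knockdown pair.

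**Figure D3:**
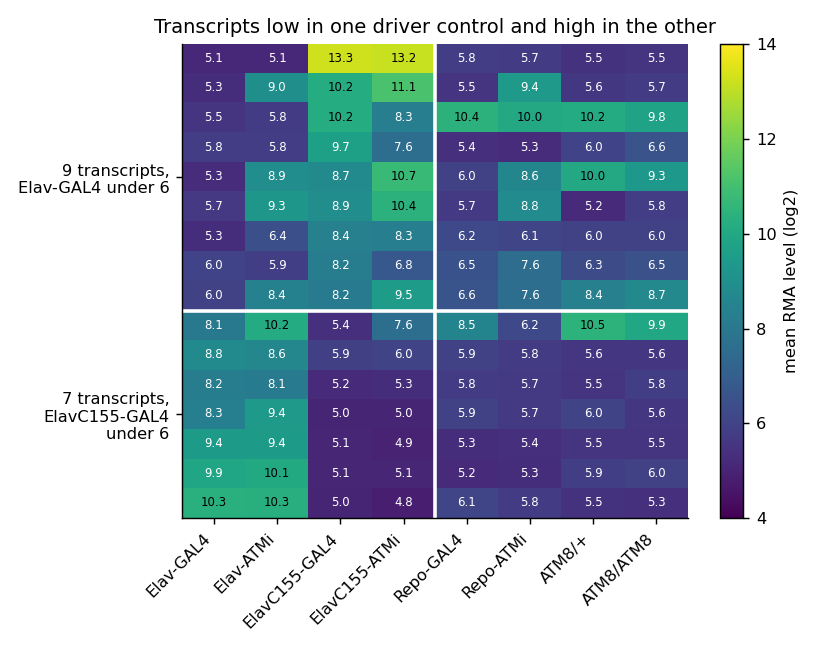
Mean RMA level (log2, printed in each cell) of the 16 transcripts with a mean under 6 in one driver control and of at least 8 in the other, by genotype, ordered by their difference. The lower block is high in Elav-GAL4 and Elav-ATMi, and 6 of its 7 rows are low (at most 6.10) in every other genotype, whereas rows of the upper block are high in varying sets of genotypes.

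The knockdown pair gave a second measurement of the difference between the lines, in other flies. Its standard errors came from the same fit as those of the controls, with a shared spread for each transcript. A transcript with a small spread thus passes more easily in both pairs, so the calls of the pairs are not independent. A handling difference that followed the lines in both pairs would also return here, which was not tested. ElavC155-ATMi and Elav-ATMi heads differed for 2896 transcripts (18.7%), 1436 higher (9.28%) and 1460 lower (9.44%) with the ElavC155 driver. Of the 3426 transcripts changed between the driver controls, 3360 (98.1%) had the same sign in the knockdown pair, and 1900 were called there in the same direction, 917 higher and 983 lower. These are 55.5% of the control calls and 65.6% of the knockdown calls, and 2 transcripts were called in opposite directions. Over all 15473 transcripts 79.6% had the same sign, and the differences of the pairs correlated at r = 0.784 (Spearman's rho = 0.775), a description across transcripts, which are not independent replicates and were normalized on the same set of arrays.

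The sign returned about equally often at all sizes. Of the differences under 1.5-fold, 97.2% of the higher and 97.5% of the lower transcripts had the same sign in the knockdown pair, and in the larger bins the share was 97.9% to 100%. The share that passed the test there rose with size, and a fixed threshold favours larger differences by construction. Among higher transcripts, 36.4% of the 503 under 1.5-fold were called in the same direction in the knockdown pair, 61.5% of the 707 from 1.5 to 2-fold, 83.1% of the 302 from 2 to 4-fold and 87.3% of the 55 of at least 4-fold. Among lower transcripts the shares were 38.5% of 561, 54.3% of 823, 65.4% of 442 and 93.9% of 33. All 88 transcripts (0.569%) that differed at least 4-fold between the controls had the same sign in the knockdown pair. Their median was 2.49 in the controls against 1.97 in the knockdown pair for the higher ones and -2.33 against -1.94 for the lower ones. Since transcripts were picked on the control pair, a somewhat smaller value in the other pair can follow from the choice. Of the 10 largest higher transcripts, 4 passed a test of the difference between the pairs, each with a smaller value with the transgene. Among the 10 largest lower ones, 0 passed. How much of the drop comes from the choice was not tested.

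Without Elav-ATMi replicate 1, the array that stood apart, 2544 transcripts differed in the knockdown pair, 1722 were called in the same direction in both pairs and 98.0% of the control calls had the same sign. The correlation of the differences was then 0.795 (rho = 0.779), with 79.4% of all transcripts of the same sign and 3 called in opposite directions. The share of the smallest higher differences that passed in both pairs was 27.9% without it, and that of the smallest lower ones 33.8%, while the shares at 4-fold or more were 87.3% and 94.1%. The knockdown pair also leaned on its ElavC155 arrays, with 1444 calls without ElavC155-ATMi replicate 1 and 889 without replicate 2, and calls in both pairs then numbered 1115 and 695. Without ElavC155-GAL4 replicate 2 they numbered 959.

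**Figure D4:**
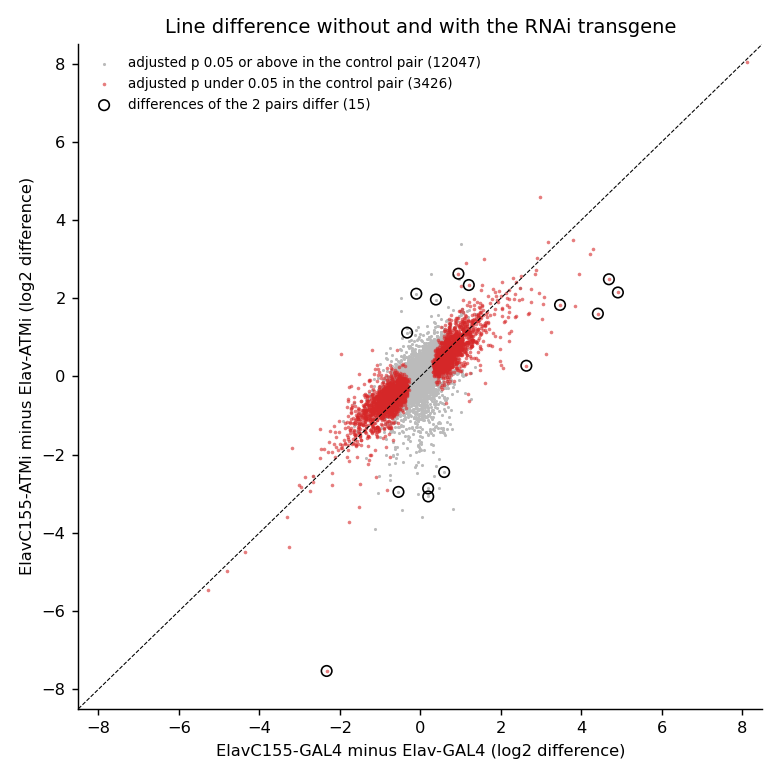
Log2 difference between the lines for each of 15473 transcripts, without the RNA interference transgene (horizontal axis) and with it (vertical axis); the dashed line marks equal differences. The 3426 transcripts called in the control pair (red) lie along the dashed line, with 98.1% on the same side of 0 in both pairs, and circles mark the 15 transcripts for which the pairs differ.

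A test of the difference itself passed for 15 transcripts (0.0969%), in which the line difference was not the same with and without the transgene. Of these, 8 were changed between the driver controls, and all 8 kept their sign in the knockdown pair, 5 with a smaller and 3 with a larger difference. FBtr0082093 was the largest. It was already lower in ElavC155-GAL4 (10.80 and 10.56) than in Elav-GAL4 (12.94, 13.45, 12.68 and 12.97), a difference of -2.33 ± 0.23 (limma adjusted p = 7.3e-06). With the transgene it read 5.06 and 4.85 in ElavC155-ATMi against 12.28 to 12.74 in Elav-ATMi, and the interaction was -5.20 ± 0.32 (adjusted p = 4.9e-07). The ElavC155 controls thus lay below the Elav controls and well above the ElavC155 knockdown flies for this transcript. A low level was not particular to ElavC155-ATMi: the mean was 6.35 in ATM8 homozygotes against 12.19 in ATM8 heterozygotes, while it was 12.36 in Repo-GAL4 and 11.94 in Repo-ATMi.

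Of the other 3 examples, FBtr0071911 and FBtr0072463 did not pass between the controls and FBtr0100642 did. FBtr0071911 had a line difference of 0.19 ± 0.41 in the controls (limma adjusted p = 0.78) and of -3.07 ± 0.41 in the knockdown pair. It read 9.45 to 10.28 in Elav-ATMi and 6.02 to 7.40 in Elav-GAL4. The means of the glial pair ran the other way, at 10.2 in Repo-GAL4 without the transgene and 8.07 in Repo-ATMi. The interaction was -3.26 ± 0.58 (adjusted p = 0.043). This call was lost in 11 of its 19 alternatives, with adjusted p up to 0.20, and one of these left out Elav-ATMi replicate 1 (adjusted p = 0.064). FBtr0072463 differed by -0.10 ± 0.22 in the controls and by 2.11 ± 0.22 with the transgene (interaction 2.22 ± 0.31, adjusted p = 0.0064, and up to 0.060 in the 2 alternatives that lost it). FBtr0100642 was higher in ElavC155-GAL4 by 0.95 ± 0.20 (adjusted p = 0.0037) and by 2.63 ± 0.20 with the transgene, an interaction of 1.68 ± 0.28 (adjusted p = 0.034) that was lost in 8 of 18 alternatives. The count of 15 was 13 without Elav-ATMi replicate 1, 41 without Elav-ATMi replicate 3, 8 without Elav-ATMi replicate 4, 7 without Elav-GAL4 replicate 4 and 6 without ElavC155-GAL4 replicate 2. Leaving out ElavC155-ATMi replicate 1 gave 7, and leaving out its replicate 2 gave 9.

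Among the 17 rows with a single named gene, which were not chosen by their values, 7 changed between the driver controls (41.2%, beside 22.1% of all transcripts): 2 were higher and 5 lower in ElavC155-GAL4. All 7 had the same sign in the knockdown pair, and 4 of them (LanA, His4r, alpha-Spec and fend) were called there too. Without Elav-ATMi replicate 1, fend lost its call in the knockdown pair, as did sle and Wdr24, which had passed in that pair alone. For none of the 17 did the pairs differ in the interaction test. Of these rows, 4 had an opposite sign in the pairs.

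LanA encodes a laminin alpha chain of the basement membrane. Its level was 11.53, 12.17, 11.68 and 11.81 in Elav-GAL4 and 12.52 and 12.42 in ElavC155-GAL4, higher by 0.67 ± 0.18 (1.59-fold, limma adjusted p = 0.015), with no overlap. In the knockdown pair it was higher by 0.77 ± 0.18 (adjusted p = 0.0082). His4r, a histone H4 gene expressed outside DNA replication, read 10.21, 9.52, 9.24 and 9.83 in Elav-GAL4 and 10.72 and 10.54 in ElavC155-GAL4. It was higher by 0.93 ± 0.23 (1.90-fold, adjusted p = 0.010), and by 0.95 ± 0.23 in the knockdown pair (adjusted p = 0.010). His4r encodes the same protein as the clustered histone H4 genes, and how far their RNA adds to its signal is uncertain, since probe sequences were not used here.

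The lower genes had small differences. alpha-Spec encodes alpha spectrin of the membrane skeleton and read 13.82, 14.25, 13.84 and 13.94 in Elav-GAL4 against 13.54 and 13.48 in ElavC155-GAL4, a difference of -0.45 ± 0.12 (1.37-fold, limma adjusted p = 0.013) that was -0.44 ± 0.12 in the knockdown pair (adjusted p = 0.017). fend, or forked end, differed by -0.35 ± 0.11 in the controls (adjusted p = 0.036) and by -0.35 ± 0.11 in the knockdown pair (adjusted p = 0.044). SuUR, a chromatin protein that restrains DNA replication in heterochromatin, differed by -0.42 ± 0.13 (adjusted p = 0.035). mio, a component of the GATOR2 complex that acts upstream of TORC1, differed by -0.44 ± 0.15 (adjusted p = 0.049). In the knockdown pair SuUR (-0.28 ± 0.13, adjusted p = 0.15) and mio (-0.38 ± 0.15, adjusted p = 0.091) did not pass.

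CG31178 had the largest difference of the 17 genes. Its levels were 7.11, 7.16, 6.43 and 6.59 in Elav-GAL4 and 5.83 and 5.71 in ElavC155-GAL4, a difference of -1.05 ± 0.30 (2.07-fold lower, limma adjusted p = 0.021). In the knockdown pair its difference was -0.87 ± 0.30 (adjusted p = 0.054). These levels lie in the lowest quartile of levels, and the lines did not overlap in the controls.

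None of the 7 calls held without ElavC155-GAL4 replicate 2, and 1, that of fend, held without ElavC155-GAL4 replicate 1. When the 6 arrays were fitted on their own, without the spread of the other genotypes, 6 of the 7 calls were lost and that of CG31178 held. With Elav-GAL4 replicates 1 and 2 only 5 were lost, and with replicates 3 and 4 only 4 were lost. With each array centred on its median 3 calls were lost (fend, SuUR and mio). mio lost its call in 14 of 17 alternatives, with adjusted p up to 0.25.

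The remaining 10 named genes did not pass in the driver controls. Fatp1, a fatty acid transport protein, had a difference of -0.41 ± 0.18 (limma adjusted p = 0.12) and was lower in the knockdown pair, at -0.70 ± 0.18 (adjusted p = 0.014). sle (slender lobes) likewise had -0.30 ± 0.15 (adjusted p = 0.17) and then -0.50 ± 0.15 (adjusted p = 0.033). In the driver controls sle passed in 2 alternatives, without Elav-GAL4 replicate 1 (adjusted p = 0.038) and with Elav-GAL4 replicates 3 and 4 alone (adjusted p = 0.035). Wdr24, another GATOR2 component, turned in sign, from 0.17 ± 0.11 in the controls (adjusted p = 0.29) to -0.33 ± 0.11 in the knockdown pair (adjusted p = 0.046), and the difference of the pairs did not pass (adjusted p = 0.58). CG16974 had a difference of -0.32 ± 0.13 (adjusted p = 0.087). Neither CG16974 nor Fatp1 overlapped between the driver controls, which also held for 41.1% of all transcripts. The differences of the chromatin genes HDAC3, a histone deacetylase (0.03 ± 0.16), and kis, a chromatin remodeller (-0.08 ± 0.14), and of Uba1, the ubiquitin-activating enzyme (-0.01 ± 0.15), were smaller than their standard errors, as was that of the phosphate transporter gene NaPi-III (0.04 ± 0.18). rdx, an adaptor of a ubiquitin ligase, gave 0.18 ± 0.15 and the kinase gene Dyrk3 gave -0.25 ± 0.18.

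**Figure D5:**
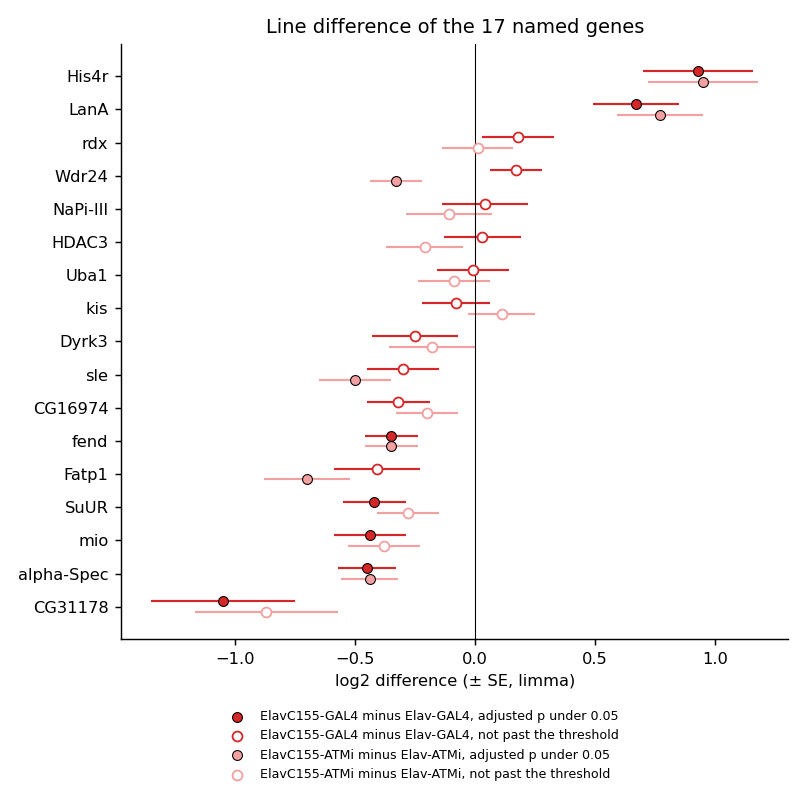
Log2 difference between the lines (± SE, limma) for the 17 rows tied to exactly 1 gene, without the RNA interference transgene (dark) and with it (light); filled points have an adjusted p under 0.05 over all transcripts. LanA (0.67 and 0.77) and His4r (0.93 and 0.95) lie to the right of 0 in both pairs, and CG31178 (-1.05 and -0.87) lies farthest to the left.

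A further 27 rows were tied to several genes each, because the gene table lists these transcripts under more than 1 gene. Of these, 6 were changed between the driver controls (22.2%, the same share as among all transcripts), and all 6 were higher in ElavC155-GAL4, where 10.1% of all transcripts were higher. These 6 are named here because they passed, and so were chosen by their values. The transcript shared by CG45085 and CG8026 read 11.45, 11.08, 11.24 and 11.29 in Elav-GAL4 against 11.94 and 12.30 in ElavC155-GAL4, higher by 0.86 ± 0.14 (1.81-fold, limma adjusted p = 0.00072), and by 1.27 ± 0.14 in the knockdown pair (adjusted p = 2.6e-05). Its call held in all 17 alternatives.

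The transcript of Mocs2A and Mocs2B, which encode the subunits of molybdopterin synthase, was higher by 0.72 ± 0.19 (limma adjusted p = 0.015). That of PIG-P, which acts in the synthesis of membrane anchors, and Tcs6 was higher by 0.62 ± 0.17 (adjusted p = 0.016). The transcript listed for Tim10, a chaperone of protein import into mitochondria, and CG42497 was higher by 0.53 ± 0.16 (adjusted p = 0.027), and that of ND-MNLL, a subunit of respiratory complex I, and CG45089 by 0.50 ± 0.15 (adjusted p = 0.028). The transcript of CG30100 and CG42372 was higher by 0.51 ± 0.17 (adjusted p = 0.042). All 6 had the same sign in the knockdown pair, where 3 passed: those of CG45085 and CG8026, of PIG-P and Tcs6 (0.72 ± 0.17, adjusted p = 0.0073), and of ND-MNLL and CG45089 (0.85 ± 0.15, adjusted p = 0.0014). In the control pair 5 of the 6 calls were lost without ElavC155-GAL4 replicate 2, 4 without its replicate 1, and 5 when the 6 arrays were fitted on their own. Among Elav-GAL4 arrays, leaving out replicate 2, 3 or 4 lost 3, 2 and 1 of these calls.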

How the data were processed

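The values used are those the authors deposited, log2 RMA levels with 1 column per array. RMA corrects background, normalizes arrays and summarizes probes, and is listed, with no version, per the submitters' processing notes. Probe sequences and annotation release were not used here, and the log2 scale was read from the values. Cy3 labelling was done by NimbleGen, per the labels' protocols. Replicates were not pooled, and 0 pairs of arrays held identical values.

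A mean for each of the 8 genotypes was fitted over all 20 arrays in R 4.3.3, using limma 3.58.1 (functions lmFit and eBayes at their defaults, two-sided tests, 12 residual degrees of freedom). Adjusted p-values are Benjamini-Hochberg values across the 15473 transcripts. The interaction was a contrast in this fit. Errors are standard errors for differences and SDs for levels. Transcripts were tied to genes through all name columns of a RefSeq gene table (Release 6), which matched 44 rows. The rule named the 10 largest changes per direction with no overlap between the lines. As few identifiers have a gene, 2 per direction are printed with their levels, with each row tied to 1 gene. Members, lists and tests were chosen with earlier results of these data known. Alternatives covered the arrays fitted, scaling, dim transcripts, array weights, an intensity trend, the replicate block and each replicate left out. The fit was tested on simulated data. Replicate numbers 1 and 2 were not seen to pair these samples. The number of arrays limits the precision.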

Additional observations from a re-analysis of the deposited data

Results flagged for a closer look

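For 5 transcripts named above, the difference between the lines was not the same with and without the RNA interference transgene, in limma's interaction test: FBtr0082093 (-5.20), FBtr0071911 (-3.26), FBtr0082708 (-2.76), FBtr0072463 (2.22) and FBtr0100642 (1.68), each on the log2 scale.

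In 3 cases 1 array lay far from the other arrays of its genotype, and each time it was Elav-GAL4 replicate 2. It read 12.06 for mio, where the other Elav-GAL4 arrays lay between 11.72 and 11.78. For kis it read 13.83, against 14.26 to 14.30, and for Fatp1 14.48, against 13.97 to 14.03. Such a distance is reached by chance in about 5% of groups, and 62 were looked at (31 transcripts in 2 genotypes). Without that array 2908 transcripts differed between the driver controls.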

How the results depend on the processing

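The count of transcripts changed between the driver controls varied most with the arrays included. With 1 replicate left out it ran from 1217 to 3803, and under 9 of the 10 other alternatives it stayed within 1.5 times 3426, the exception being the 6 compared arrays alone (1750, fewer arrays for the spread). Without Elav-ATMi replicate 1, tried, like the other values given without that array, after the data were seen, it was 3433. For the knockdown pair the count ran from 889 to 2544 with 1 replicate left out and was 4736 with array weights. The count of transcripts whose line difference changed with the transgene ran from 6 to 41 with 1 replicate left out, and was 23 with array weights, 8 in a fit of the 12 neuronal arrays and 7 after quantile normalization. The cause of these shifts was not tested. Of the 3426 transcripts, 2898 were called in the same direction after quantile normalization and 1657 in the fit of 6 arrays. The median of all transcripts moved to at most 0.040 (centred arrays).

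The lines share replicate numbers 1 and 2. The difference between replicates 1 and 2 correlated at -0.049 between the driver controls and at -0.017 between the knockdown genotypes. Replicates 1 and 2 were thus not seen to shift together across the lines. This contrast cannot show a shift of replicates 3 and 4, which the Elav genotypes alone have, against 1 and 2. With Elav-GAL4 replicates 1 and 2 only, 2377 transcripts differed between the driver controls, and 3044 with replicates 3 and 4 only. Blocking on the replicate number gave counts of 3439, 2877 and 16. Under this block the control pair calls of fend (adjusted p = 0.076), SuUR (0.079), mio (0.052), the transcript of ND-MNLL and CG45089 (0.060) and that of CG30100 and CG42372 (0.11) were lost, and Fatp1 passed (-0.55, adjusted p = 0.031). The other 8 calls of named genes held. Small differences, such as those of most named genes, are limited by the 2 ElavC155-GAL4 arrays.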
